A study of Mus musculus with 12 samples.

Results

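Interferon-stimulated genes (ISGs) are the genes that cells switch on when interferon binds its receptors, and a list of 41 of them was followed here through 4 single-cell gene expression libraries of mouse aorta. The list was taken by gene symbol, and 40 of the 41 symbols were found among the 32245 gene symbols of the count matrices. Mx1 was not analysed here. The 40 genes fall into 9 groups by role, namely ISG15 and its protease (Isg15, Usp18), the IFIT family (Ifit1, Ifit2, Ifit3, Ifit3b), small induced proteins (Ifi27, Ifi27l2a, Ifi35, Ifi44), the IFITM family (Ifitm1, Ifitm2, Ifitm3), transcription factors (Irf1, Irf7, Irf9, Stat2), antiviral effectors (10 genes), sensors (Zbp1, Ifih1, Dhx58), interferon-inducible GTPases (7 genes) and antigen processing (Psmb8, Psmb9, Tap1). Type I interferons signal through a receptor whose activated transcription factors, STAT2 and IRF9 among them, occupy interferon-stimulated response elements, whereas interferon gamma acts mainly through gamma-activated sites. The products restrict viruses, conjugate ISG15 to proteins, trim peptides for MHC class I and feed back on the pathway. In the vessel wall, endothelial cells are known as strong responders to both kinds of interferon.

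All 4 groups were labelled as ApoE-/- and, by the study's methods, were male mice on the C57BL/6J background, 8 weeks old at the start and followed for 24 weeks, with 18 mice a group and 6 aortas pooled into each library. The group labelled Healthy had a normal diet and saline. The AS group had a high-fat diet with 1% cholesterol and 10% fat and saline. MTZ-treated mice had the same diet and received methazolamide, a carbonic anhydrase inhibitor (written methoxazolamide in the labels), at 25 mg/kg from week 13 to week 24, and MTZ-preventive mice received it from week 1 to week 24. Apoe carries lipoprotein remnants to the liver, and mice without it are prone to plaque. Each group is 1 library of pooled animals, so no value has a replicate check. Intervals below are exact 95% intervals of the UMI counts (Poisson for a level, conditional binomial for a ratio of 2 levels, Clopper-Pearson for a share of cells) and cover counting error only.

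After limits on quality and doublets, the libraries held 2160 (AS) to 14186 (MTZ-preventive) cells and 3793051 to 38412603 UMIs, of 6908 to 23963 deposited barcodes. Levels are given as UMIs of a gene per 1000000 UMIs (CPM), from the summed counts of a library's cells or of one class of them, and values of 4 libraries stand in the order labelled Healthy, AS, MTZ-treated and MTZ-preventive wherever no library is named. A level set by 3 UMIs was the floor below which no fold is given, equal to 0.0781 to 0.791 CPM. Apoe, the gene that the labels give as deleted in all 4 groups, stood at 682 CPM in the library labelled Healthy, against 11.3 in AS, with 12.6 in MTZ-treated and 8.33 in MTZ-preventive, so the library labelled Healthy goes against its genotype label, and this bears on each comparison with it. Between any 2 libraries, 209 to 805 barcodes were shared, at most 3.68% of either. Cells were put into classes by 8 marker genes each, none of them an ISG, and a class was compared where both libraries held at least 50 cells. The endothelial-like class held 498, 247, 862 and 1125 cells in the library labelled Healthy, AS, MTZ-treated and MTZ-preventive, the fibroblast-like class 1633, 338, 1790 and 3078, and the smooth muscle-like class 886, 118, 1164 and 1465. Of the cells given a class, 27.5% to 37.5% per library lay at the edge of the gate, and 52.7% (AS) to 72.1% (labelled Healthy) of cells were given one. Within the endothelial-like, fibroblast-like and smooth muscle-like classes, 44.9%, 35.5% and 41.5% of AS cells lay at the edge. In the library labelled Healthy these shares were 30.9%, 26.1% and 29.0%. The libraries differed in makeup, since B-like and T-like cells numbered 2800 and 1781 in the library labelled Healthy against 11 and 9 in AS.

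The DNA just upstream of a gene can hold the sites that interferon signalling is known to use. Stretches are shown here for a part of the list, mostly genes in which a motif searched below was found. RefSeq start sites on build GRCm38.p6, the patch release of the mm10 assembly named in the submitters' processing notes, were at hand for 31 of the 40 genes (36 start sites). The core of the interferon-stimulated response element was searched as GAAA, any 2 bases and GAAA again, on both strands, and the gamma-activated site as TTCNNNGAA, which reads the same on both strands. Within the 250 bases before the start, 15 of the 31 genes held the first motif, against 3.46% of 27025 genes, and 7 of 31 held the second, against 8.13%. Oas1a, Bst2, Gbp7 and Igtp held both, and Irf7 and Tap1, named in the results below, were among the genes that held neither. A match is a description of the letters and not a proven binding site. Usp18, Ifi27, Ifi27l2a, Oas2, Rtp4, Parp14, Zbp1, Dhx58 and Iigp1 had no stretch to search. In the stretches that follow, written 5' to 3' on the gene's strand and ending at the base before the start, capitals mark every match. Isg15 (chr4:156200819-156200918, - strand) held 3 overlapping matches, Ifit1, Ifit3 and Ifit3b 2 each, read as TTTC on the strand shown, and Bst2 2 overlapping matches of the first motif that share bases with 1 match of the second.
Isg15: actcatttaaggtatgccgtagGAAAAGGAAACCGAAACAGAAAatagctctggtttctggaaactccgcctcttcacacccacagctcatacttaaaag
Ifit1: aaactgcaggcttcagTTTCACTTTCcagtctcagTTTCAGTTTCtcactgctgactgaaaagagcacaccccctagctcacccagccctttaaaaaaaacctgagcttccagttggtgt
Ifit3: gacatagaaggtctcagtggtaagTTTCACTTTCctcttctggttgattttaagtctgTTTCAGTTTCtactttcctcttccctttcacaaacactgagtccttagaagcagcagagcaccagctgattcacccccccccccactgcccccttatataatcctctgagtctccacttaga
Ifit3b: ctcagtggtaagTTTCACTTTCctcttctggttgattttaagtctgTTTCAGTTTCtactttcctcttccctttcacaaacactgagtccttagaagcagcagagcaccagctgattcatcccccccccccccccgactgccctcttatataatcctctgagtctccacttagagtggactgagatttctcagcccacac
Bst2: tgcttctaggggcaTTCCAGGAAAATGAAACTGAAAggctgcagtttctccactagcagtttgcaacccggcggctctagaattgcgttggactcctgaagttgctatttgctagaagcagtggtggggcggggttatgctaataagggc

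Ifit1 was read at chr19:34640769-34640888, + strand, Ifit3 at chr19:34583349-34583528, + strand, Ifit3b at chr19:34607757-34607956, + strand and Bst2 at chr8:71537473-71537622, - strand. Ifit3 and Ifit3b are near copies. Their upstream stretches were identical at 188 of 218 bases when laid side by side without gaps, and reads of the pair may be split or lost in counting, so their separate levels are uncertain. The guanylate-binding protein genes Gbp2 (chr3:142620563-142620662, + strand) and Gbp3 (chr3:142559944-142560043, + strand) held 1 and 2 matches of the response element, and Irf1 (chr11:53769894-53770013, + strand) held 1 match of the gamma-activated site and none of the response element.
Gbp2: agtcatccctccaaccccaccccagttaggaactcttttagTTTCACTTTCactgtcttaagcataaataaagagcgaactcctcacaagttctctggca
Gbp3: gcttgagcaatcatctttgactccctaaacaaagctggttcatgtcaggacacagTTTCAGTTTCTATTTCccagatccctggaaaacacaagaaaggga
Irf1: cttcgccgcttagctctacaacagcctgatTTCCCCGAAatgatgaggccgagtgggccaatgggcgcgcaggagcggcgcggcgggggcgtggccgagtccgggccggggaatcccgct

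The IFITM genes, whose levels ran apart from the rest of the list, differed among themselves in these letters. Ifitm2 (chr7:140955962-140956061, - strand) held 1 match, while the windows of Ifitm1 (chr7:140967976-140968075, + strand) and Ifitm3 (chr7:141010745-141010844, - strand) held none, which says only that these letters are not in the 250 bases searched.
Ifitm1: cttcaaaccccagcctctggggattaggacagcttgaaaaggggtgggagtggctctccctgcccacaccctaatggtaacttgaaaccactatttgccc
Ifitm2: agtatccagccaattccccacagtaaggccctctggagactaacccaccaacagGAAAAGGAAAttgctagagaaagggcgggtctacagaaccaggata
Ifitm3: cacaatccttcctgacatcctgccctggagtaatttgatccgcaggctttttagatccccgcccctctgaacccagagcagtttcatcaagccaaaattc
Psmb9 and Tap1 lie head to head, with start sites 226 bases apart, and their windows overlap.

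Over all cells, the 40 genes summed to 5089 CPM in the library labelled Healthy, against 7748 in AS, with 7126 in MTZ-treated and 4978 in MTZ-preventive. The sum was 1.52-fold higher (95% interval 1.504 to 1.54) in AS than in the library labelled Healthy, 1.09-fold lower (95% interval 1.07 to 1.10) in MTZ-treated than in AS, and 1.56-fold lower (95% interval 1.54 to 1.58) in MTZ-preventive than in AS. All 3 comparisons share the AS library. Most of the sum came from 4 genes. Ifitm1, Ifitm2, Ifitm3 and Ifi27l2a held 50.8% of the UMIs of the list in the library labelled Healthy, 73.7% in AS, with 69.3% in MTZ-treated and 66.2% in MTZ-preventive. Without these 4 genes the order changed, and the other 36 summed to 2503 CPM in the library labelled Healthy, against 2040.3 in AS, with 2186 in MTZ-treated and 1681 in MTZ-preventive. That remainder was 1.23-fold lower (95% interval 1.20 to 1.26) in AS than in the library labelled Healthy, 1.07-fold higher (95% interval 1.05 to 1.10) in MTZ-treated than in AS and 1.21-fold lower (95% interval 1.19 to 1.24) in MTZ-preventive than in AS. In sums over all cells, fewer cells of a type and less RNA per cell cannot be told apart. Over the classes that both libraries held at 50 cells or more, the cells given no class counted as one, and with each class weighted by its UMIs in the library labelled Healthy, the log2 ratio of the whole list for MTZ-treated to AS turned from -0.12 to 0.0181, and that for AS to the library labelled Healthy fell from 0.61 to 0.28. These classes held 56.7% to 57.1% of the UMIs of that library, so leaving out the other classes and reweighting changed together, and leaving out the B-, T-, NK- and neutrophil-like cells without reweighting gave 0.32 for AS to the library labelled Healthy.

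A level of at least 10 CPM on average over the 4 libraries was reached by 36 of the 40 genes, and Ifit2, Ifi44, Oas2 and Dhx58 fell short, with 1.82 to 13.8 CPM per library. Of the 36, 3 were at least 2-fold higher in AS than in the library labelled Healthy (Ifitm1, Ifitm2, Ifitm3), where 7.81% of 8760 genes at this level were, and 7 were at least 2-fold lower (Usp18, Ifit1, Ifit3, Ifit3b, Irf7, Trim30a, Tap1), where 11.3% of all genes were. The median log2 ratio was -0.43 for the 36 and -0.10 for all genes. Against AS, MTZ-treated had no gene of the list 2-fold higher (5.83% of all genes) and 1 lower, Ifitm1 (4.59%), with medians of -0.05 and 0.08. MTZ-preventive had none 2-fold higher (5.88%) and 3 lower, Ifi27l2a, Ifitm1 and Zbp1 (2.01%), with medians of -0.27 and 0.11. Without the B-, T-, NK- and neutrophil-like cells, Ifitm1 was the 1 gene of the 3 still 2-fold higher in AS, with a log2 ratio of 4.78, while Ifitm2 came to 0.86, Ifitm3 to 0.34 and, among the lower genes, Tap1 to -0.84. Put in order, 27 of the 36 were highest in the library labelled Healthy, as were 35.1% of all genes, and 24 were lowest in MTZ-preventive, as were 9.06%. The filter let in genes through the library where they were high, so these counts describe the genes measured and are not a test of the list.

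**Figure D1:**
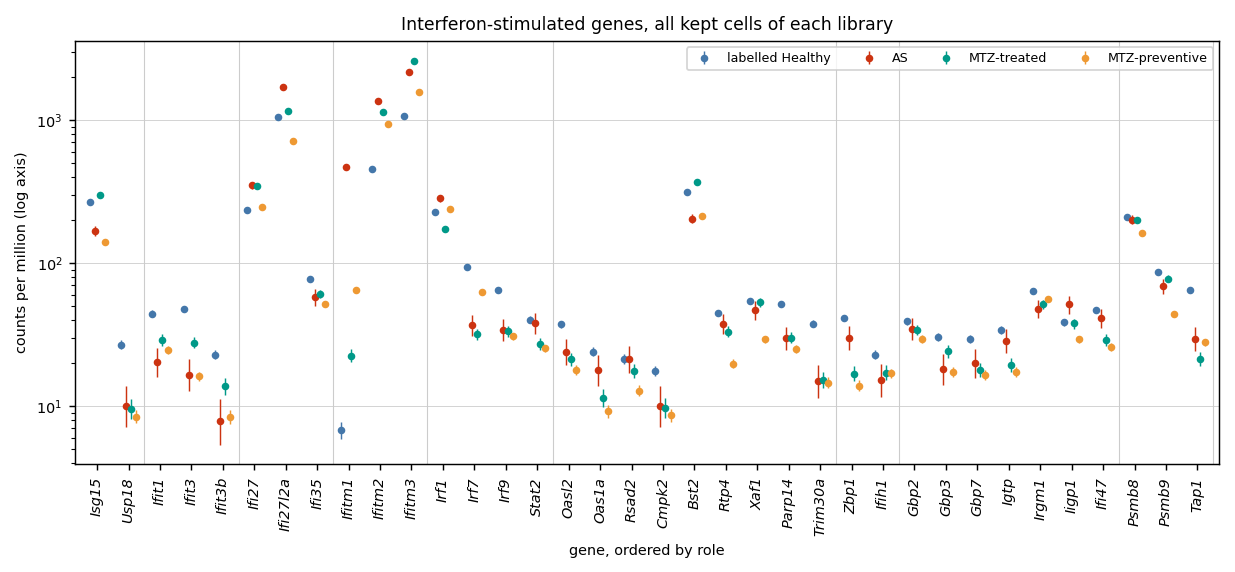
Level of each of the 36 ISGs with a mean of at least 10 CPM, in CPM on a log axis, over all kept cells of each library (points, 1 library each; bars, exact 95% Poisson intervals; vertical lines separate the role groups). Most genes are highest in the library labelled Healthy, while Ifitm1, Ifitm2 and Ifitm3 are lowest there, and Ifitm1 runs from 6.80 to 473 CPM.

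The ligands were scarce. Over 14 type I and type III interferon genes the 4 libraries held 49, 1, 6 and 7 UMIs, and no such gene passed 0.447 CPM in any. Ifng, the interferon made by T and NK cells, stood at 29.1 CPM in the library labelled Healthy, against 7.38 in AS, with 10.8 in MTZ-treated and 9.76 in MTZ-preventive, and was 3.94-fold lower (95% interval 2.71 to 5.97) in AS than in the library labelled Healthy. In the library labelled Healthy, 49.5% of its UMIs lay in T-like cells and 20.1% in NK-like cells, classes that held 9 and 0 cells in AS. The mean of Ifng over the libraries reached 10 CPM only with the library labelled Healthy counted. Of 6 receptor genes, the 5 at the level tested all stayed within 2-fold in every comparison. The type I receptor chain Ifnar2 was 78.8, 143, 154 and 111 CPM, and the interferon gamma receptor chain Ifngr1 was 76.9, 128, 102 and 93.9 CPM.

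The receptor genes above and other genes of the pathway beyond the list were counted at the same level as the list. Of all 8760 genes at this level, 11.3% were at least 2-fold lower and 7.81% higher in AS than in the library labelled Healthy. Against AS, 4.59% were lower and 5.83% higher in MTZ-treated, and 2.01% were lower and 5.88% higher in MTZ-preventive. Among 10 signalling and feedback genes tested, 1 was at least 2-fold lower in AS than in the library labelled Healthy, namely Irf8, a factor of B and myeloid cells, at 4.12-fold lower (95% interval 3.26 to 5.30). Irf5 was the 1 that was 2-fold lower in MTZ-treated than in AS, at 2.39-fold lower (95% interval 1.69 to 3.34), and Irf8 the 1 that was higher in MTZ-preventive, at 2.22-fold higher (95% interval 1.75 to 2.85). Of 5 nucleic acid sensing genes tested, Myd88, an adaptor of Toll-like receptors, was 2.21-fold higher (95% interval 1.97 to 2.47) in AS, and none passed 2-fold in the other comparisons. Of 7 MHC class I genes, Nlrc5, which drives their transcription, was 2.46-fold lower (95% interval 1.74 to 3.58) in AS, and none passed 2-fold in the MTZ comparisons. H2-K1 was 1096, 595, 569 and 696 CPM, and B2m, the light chain of MHC class I, 1180.5, 681, 766 and 698 CPM. The filter on the mean can let in a gene through the library where it was high, so these counts are a description and not a test. B-like and T-like cells numbered 2800 and 1781 in the library labelled Healthy against 11 and 9 in AS. Their part in the Irf8, Nlrc5, H2-K1 and B2m levels was not tested.

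Isg15, the ubiquitin-like protein that is joined to other proteins, was 267 CPM in the library labelled Healthy, against 168 in AS, with 301 in MTZ-treated and 140.4 in MTZ-preventive over all cells. It was highest in MTZ-treated, 1.79-fold higher (95% interval 1.65 to 1.95) than in AS. Usp18, the protease that removes ISG15 and damps the receptor, was 26.9, 10.0, 9.62 and 8.46 CPM, highest in the library labelled Healthy. The IFIT proteins bind foreign RNA, and Ifit1 was 44.3, 20.3, 29.0 and 24.9 CPM. Ifit3 was 47.7, 16.6, 27.9 and 16.1 CPM. For this family the library labelled Healthy was highest and AS was low, and the summed IFIT level was 2.50-fold lower (95% interval 2.17 to 2.91) in AS. MTZ-treated lay between them, 1.60-fold higher (95% interval 1.38 to 1.87) than AS, whereas the family sum in MTZ-preventive was 1.11-fold higher (95% interval 0.955 to 1.29) than in AS, an interval that includes no difference.

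Among the factors, Irf7, which amplifies the type I response, was 93.6, 36.6, 31.8 and 62.8 CPM. Irf9, which binds DNA together with STAT2, was 65.0, 34.3, 33.3 and 30.8 CPM, and Stat2 40.4, 38.0, 27.0 and 25.3 CPM. Irf1, an early target of interferon gamma, had another order, with 227, 283, 174 and 241 CPM. Of the antiviral effectors, Bst2, a surface protein that tethers virions, was the most abundant and was 314, 204, 369 and 214 CPM, so that it was lowest in AS. Trim30a was 37.6, 15.03, 15.2 and 14.6 CPM and Rsad2, or viperin, 21.4, 21.4, 17.7 and 12.8 CPM. The other effectors tested (Oasl2, Oas1a, Cmpk2, Rtp4, Xaf1, Parp14) were each highest in the library labelled Healthy and lowest in MTZ-preventive. Oas2, below the level tested, was 12.4, 9.49, 1.82 and 2.71 CPM.

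The sensor of Z-form nucleic acids Zbp1 was 41.3, 30.1, 16.9 and 13.9 CPM, and its MTZ-preventive level was 2.16-fold lower (95% interval 1.75 to 2.65) than AS. Ifih1, the RNA sensor MDA5, was 23.0, 15.3, 17.2 and 16.9 CPM. Interferon-inducible GTPases as a family take part in defence against pathogens in vacuoles. Irgm1 was the most abundant of them in the library labelled Healthy, with 64.2, 47.7, 51.4 and 56.0 CPM. Iigp1 was 38.6, 51.4, 37.9 and 29.3 CPM, the 1 GTPase of the 7 that was highest in AS. Over the 7 GTPases the sum was 1.17-fold lower (95% interval 1.09 to 1.25) in AS than in the library labelled Healthy. The immunoproteasome subunit Psmb8 was 212, 202, 199 and 161 CPM and Psmb9 86.3, 69.1, 78.0 and 44.0 CPM. Tap1, which pumps peptides into the endoplasmic reticulum, was 64.9, 29.5, 21.4 and 28.0 CPM, highest in the library labelled Healthy.

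The IFITM proteins sit in membranes and hinder virus entry. Over all cells Ifitm1 was 6.80 CPM in the library labelled Healthy, against 473 in AS, with 22.6 in MTZ-treated and 64.8 in MTZ-preventive. The same values were 453, 1359.9, 1144 and 939 CPM for Ifitm2 and 1078, 2165, 2611 and 1577 CPM for Ifitm3, both lowest in the library labelled Healthy. Ifitm1 was 69.6-fold higher (95% interval 60.3 to 80.6) in AS than in the library labelled Healthy, 20.9-fold lower (95% interval 18.7 to 23.5) in MTZ-treated than in AS and 7.30-fold lower (95% interval 6.86 to 7.76) in MTZ-preventive than in AS. In AS no class held more of it than the neutrophil-like cells. The 34 neutrophil-like cells of AS, below the number set for comparing classes, had 9605 CPM and held 43.8% of all its UMIs there, and clusters named by the same markers held 60 such cells with 7009.6 CPM. The other libraries had 8, 2 and 32 neutrophil-like cells in the order labelled Healthy, MTZ-treated and MTZ-preventive. Ifitm1 was 733, 0 and 1885 CPM in them, and no comparison is drawn at these cell numbers. In MTZ-preventive the neutrophil-like cells held 86 of the 2490 Ifitm1 UMIs over all cells, and the fibroblast-like cells 1217.

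S100a9, a gene abundant in neutrophils, was like Ifitm1 highest in AS, at 102 CPM in the library labelled Healthy, against 3792 in AS, with 52.1 in MTZ-treated and 100.3 in MTZ-preventive over all cells, and S100a8 at 68.2 CPM in the library labelled Healthy, against 2795 in AS, with 32.1 in MTZ-treated and 56.8 in MTZ-preventive. S100a9 was also present in AS cells of other classes, for example 449 CPM in endothelial-like cells against 0, 5.47 and 11.1 CPM in those of the library labelled Healthy, MTZ-treated and MTZ-preventive. Ifitm1 in endothelial-like cells was 5.22, 87.9, 11.4 and 33.5 CPM. Set against the tracer within AS, there were 9.55 (interval 8.87 to 10.3) Ifitm1 UMIs per 100 S100a9 UMIs in neutrophil-like cells, 12.7 (interval 10.1 to 15.8) in adipocyte-like, 16.7 (interval 11.9 to 23.1) in smooth muscle-like, 19.6 (interval 13.2 to 28.2) in endothelial-like and 30.9 (interval 25.9 to 36.6) in fibroblast-like cells. In MTZ-preventive the same number was 3.30 (interval 2.63 to 4.09) in neutrophil-like and 438 (interval 384 to 500.5) in fibroblast-like cells, so in that library the ratio was far higher outside the neutrophil-like cells. How much of the Ifitm1 of the other AS classes was neutrophil RNA was not tested.

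**Figure D2:**
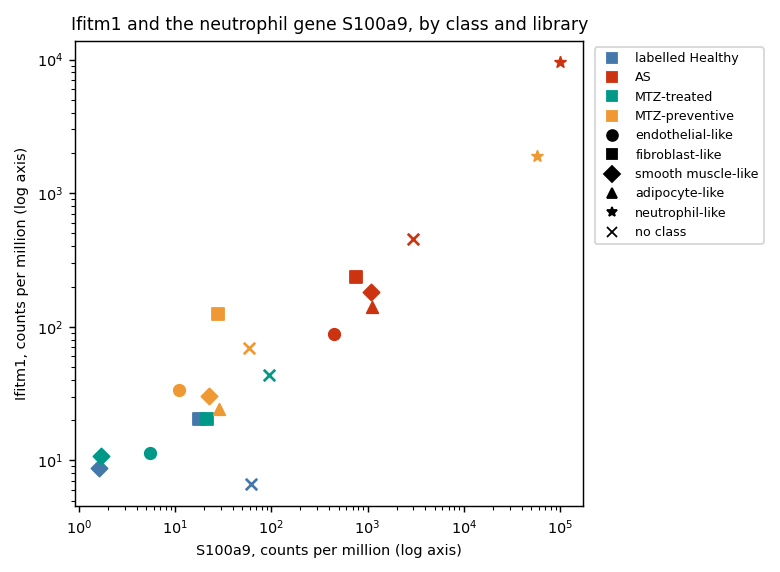
Ifitm1 against the neutrophil gene S100a9, both in CPM on log axes, by class (marker shape) and library (colour). Shown are endothelial-, fibroblast-, smooth muscle-, adipocyte- and neutrophil-like cells and those given no class, where a library held at least 20 cells. Only points with UMIs of both genes are drawn, which leaves out the endothelial-like cells of the library labelled Healthy. The 4 AS tissue classes, at 449 CPM of S100a9 or more, lie to the right of the points drawn for the same classes in the other libraries. The fibroblast-like cells of MTZ-preventive have 124 CPM of Ifitm1.

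Ifi27l2a, a small mitochondrial protein induced by interferon, was 1048 CPM in the library labelled Healthy, against 1710.5 in AS, with 1163 in MTZ-treated and 716 in MTZ-preventive over all cells. It was 1.63-fold higher (95% interval 1.59 to 1.68) in AS than in the library labelled Healthy, 1.47-fold lower (95% interval 1.43 to 1.51) in MTZ-treated than in AS and 2.39-fold lower (95% interval 2.32 to 2.45) in MTZ-preventive than in AS. Its level was highest in adipocyte-like cells, with 5357 CPM in the 300 cells of AS and 2346 CPM in the 942 of MTZ-preventive, and these cells held 53.3% and 31.9% of its UMIs. Within that class MTZ-preventive was 2.28-fold lower (95% interval 2.19 to 2.38) than AS. The libraries labelled Healthy and MTZ-treated had 30 and 21 adipocyte-like cells, too few to compare. There T-like cells (25.8%) in the first and fibroblast-like cells (53.4%) in the second held the largest shares of a class. Ifi27, a relative of the same family, was 236, 349.6, 348 and 246 CPM.

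Endothelial-like cells carried the list at its highest among the 3 classes compared in every library, and within them most of the genes measured were highest in the library labelled Healthy. The 40 genes summed to 12293 CPM in the library labelled Healthy, against 9595 in AS, with 9831 in MTZ-treated and 8477 in MTZ-preventive, and to 5795 CPM in the library labelled Healthy, against 3003 in AS, with 3265 in MTZ-treated and 2841 in MTZ-preventive without the IFITM family and Ifi27l2a. AS was 1.28-fold lower (95% interval 1.24 to 1.33) than the library labelled Healthy for the whole list and 1.93-fold lower (95% interval 1.82 to 2.05) for the remainder. At a mean of 50 CPM or more over the libraries, 26 of the 40 genes were measured here. In AS 12 of the 26 were at least 2-fold lower than in the library labelled Healthy (Isg15, Ifit1, Ifit3, Ifi27l2a, Irf7, Bst2, Rtp4, Parp14, Gbp2, Gbp3, Gbp7, Irgm1), where 5.66% of 2968 genes at this level were, and none was 2-fold higher, where 2.86% were. The median log2 ratio was -0.83 for the 26 and -0.06 for all genes. Of the 26, 22 were highest in the library labelled Healthy, as were 26.2% of all genes, and 9 were lowest in MTZ-preventive, as were 19.7%. The filter on the mean let in genes such as Ifit1 and Ifit3 through the library labelled Healthy alone, so these counts too are a description and not a test of the list.

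Of the 26 genes measured, Ifit3 had the largest ratio between the library labelled Healthy and AS, at 154 CPM in the library labelled Healthy, against 20.1 in AS, with 40.1 in MTZ-treated and 36.8 in MTZ-preventive. It was 7.66-fold lower (95% interval 3.84 to 17.9) in AS than in the library labelled Healthy on 8 AS UMIs. Ifit1 was 116, 22.6, 25.5 and 52.1 CPM, 5.13-fold lower (95% interval 2.65 to 11.4) in AS. These 2 genes were low in both MTZ libraries too, and none of the 3 libraries on a high-fat diet reached the library labelled Healthy. Isg15 was 645, 254, 452 and 241 CPM, and Bst2 1071, 394, 646 and 508 CPM. For both, MTZ-treated lay between the library labelled Healthy above and AS and MTZ-preventive below. Irf7 was 169, 42.7, 43.8 and 74.0 CPM. The GTPase Gbp2 was 154, 65.3, 62.5 and 60.2 CPM and Gbp3 139.8, 37.7, 47.0 and 53.0 CPM, so the 3 libraries on the high-fat diet were close to each other and apart from the fourth. These 3 differ from the fourth in diet, in Apoe level and in UMIs per cell at once, which cannot be told apart here. Psmb8 was 503, 349, 390.1 and 286 CPM. Irf1 was 263, 266, 189 and 281 CPM, and Ifitm3 4133, 3859, 4335 and 3359 CPM, both within 2-fold in each of the 3 comparisons.

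**Figure D3:**
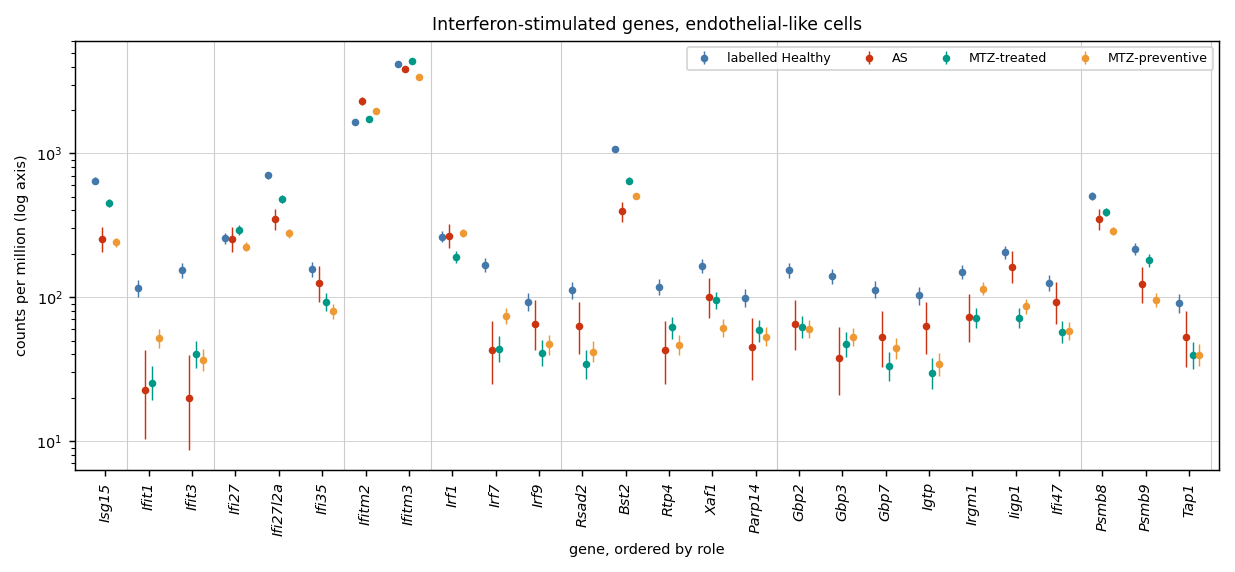
Level of the 26 ISGs with a mean of at least 50 CPM in endothelial-like cells, in CPM on a log axis, for the 4 libraries (points, 1 library each; bars, exact 95% Poisson intervals; vertical lines separate the role groups). The library labelled Healthy is highest for 22 of the 26 genes, and AS, with 247 cells, has the widest intervals for most of them.

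By group, the endothelial-like sums were lower in AS than in the library labelled Healthy by 7.01-fold (95% interval 4.59 to 11.3) for the IFIT family, 2.49-fold (95% interval 2.04 to 3.05) for ISG15 and its protease, 2.43-fold (95% interval 2.16 to 2.74) for the antiviral effectors, 1.81-fold (95% interval 1.57 to 2.09) for the GTPases, 2.01-fold (95% interval 1.25 to 3.42) for the sensors, 1.55-fold (95% interval 1.37 to 1.76) for the small induced proteins, 1.55-fold (95% interval 1.34 to 1.79) for antigen processing and 1.39-fold (95% interval 1.18 to 1.64) for the transcription factors. The IFITM sum alone was higher in AS, by 1.08-fold (95% interval 1.03 to 1.13). H2-K1 and B2m, outside the list, were 2261, 1097, 1156 and 1258 CPM, and 2062, 1102, 1283 and 1066 CPM.

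Against AS, the MTZ-treated endothelial-like cells had a 1.02-fold higher (95% interval 0.990 to 1.06) summed level of the list, an interval that includes no difference, and the MTZ-preventive cells a 1.13-fold lower (95% interval 1.09 to 1.17) one. Without the IFITM family and Ifi27l2a the sum was 1.09-fold higher (95% interval 1.02 to 1.16) in MTZ-treated and 1.06-fold lower (95% interval 0.994 to 1.12) in MTZ-preventive, the latter an interval that includes no difference. No gene of the 26 was 2-fold higher in MTZ-treated (3.2% of all genes), and Igtp and Iigp1 were lower (4.92%). Iigp1 was 205, 163, 72.1 and 86.5 CPM, 2.26-fold lower (95% interval 1.67 to 3.04) in MTZ-treated. As a group the GTPases were 1.46-fold lower (95% interval 1.26 to 1.70) in MTZ-treated than in AS, while ISG15 and its protease were 1.70-fold higher (95% interval 1.40 to 2.10). In MTZ-preventive, Ifit1 was the 1 gene past 2-fold, 2.31-fold higher (95% interval 1.19 to 5.13) than AS on 9 AS UMIs (3.67% of all genes), and none of the 26 was 2-fold lower (1.68%). With clusters in place of the marker gate, an alternative chosen after seeing the data, 4 of the genes were 2-fold higher and 0 lower in MTZ-treated, and 2 were higher in MTZ-preventive. The share of all genes past 2-fold in those clusters is not given here, so these counts cannot be set against it.

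The endothelial-like class had a like summed level of its 8 markers in each library, 5497 CPM in the library labelled Healthy, against 5373 in AS, with 4893 in MTZ-treated and 5234 in MTZ-preventive. The class was gated on these same markers, which favours such a likeness in advance. Other lists moved with the libraries inside the class. Neutrophil markers summed to 20.3, 213, 18.2 and 28.7 CPM, adipocyte markers to 204, 590.0, 130.03 and 353 CPM, smooth muscle markers to 999, 1087, 2505 and 1329.9 CPM, and B cell markers to 82.9, 17.6, 8.21 and 48.5 CPM. The median cell had 3086 UMIs in the library labelled Healthy, 1450.0 in AS, with 1812 in MTZ-treated and 2384 in MTZ-preventive. The part of these differences in the ISG levels was not tested.

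For the share of cells that carried the genes, each cell was thinned to 1000 UMIs, which left out no cell. UMIs of 3 or more of the 36 genes other than the IFITM family and Ifi27l2a were found in 74.1% of 498 cells in the library labelled Healthy (exact 95% binomial interval 70.0 to 77.9), 45.3% of 247 cells in AS (exact 95% binomial interval 39.0 to 51.8), 50.6% of 862 cells in MTZ-treated (exact 95% binomial interval 47.2 to 54.0) and 40.6% of 1125 cells in MTZ-preventive (exact 95% binomial interval 37.7 to 43.6) among endothelial-like cells. The median endothelial-like cell had UMIs of 4 of the 36 genes in the library labelled Healthy, 2 in AS, with 3 in MTZ-treated and 2 in MTZ-preventive. The most genes found in 1 endothelial-like cell were 18, 8, 11 and 13 of the 36 in the 4 libraries, a maximum that also depends on the number of cells. In B-like cells of the library labelled Healthy, 16.9% of 2800 cells had UMIs of 3 or more. Isg15 UMIs were found in 34.1% of thinned endothelial-like cells of the library labelled Healthy (interval 29.98 to 38.5; 57.8% unthinned), 18.2% in AS (13.6 to 23.6; 23.5% unthinned), 31.0% in MTZ-treated (27.9 to 34.2; 45.6% unthinned) and 18.2% in MTZ-preventive (16.0 to 20.6; 35.4% unthinned). In B-like cells, which had little Isg15, the share was 5.89% in the library labelled Healthy (11.2% unthinned), with a median of 2014 UMIs before thinning. Ifitm3 UMIs were found in 92.4% of thinned endothelial-like cells of that library (98.2% unthinned) and in 2.92% of its T-like cells (6.46% unthinned).

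**Figure D4:**
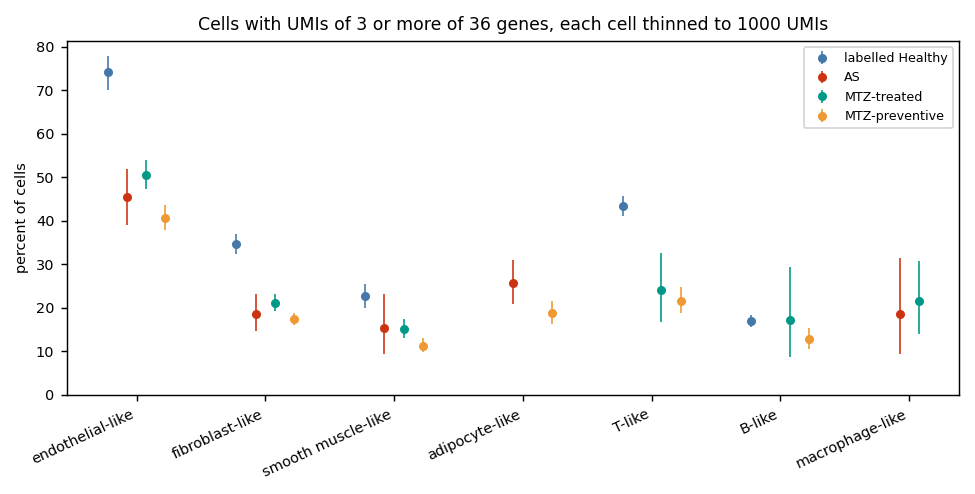
Percent of cells with UMIs of 3 or more of 36 ISGs (the list without the IFITM family and Ifi27l2a), each cell thinned to 1000 UMIs, by class for libraries with at least 50 cells of it (points; bars, exact 95% binomial intervals). Endothelial-like cells of the library labelled Healthy are highest at 74.1%, with T-like cells of that library at 43.4%.

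In fibroblast-like cells the whole list was 1.06-fold higher (95% interval 1.03 to 1.09) in AS than in the library labelled Healthy, and it was lower there once the IFITM family and Ifi27l2a were left out. The list without the IFITM family and Ifi27l2a summed to 2224 CPM in the library labelled Healthy, against 1586 in AS, with 1700.1 in MTZ-treated and 1582 in MTZ-preventive, 1.40-fold lower (95% interval 1.32 to 1.49) in AS than in the library labelled Healthy. Of 11 genes measured there, Ifitm1 was the 1 past 2-fold in AS, 11.6-fold higher (95% interval 9.01 to 15.02) (3.67% of 2590 genes were higher and 6.14% lower). The median log2 ratio was -0.20 for the 11 and -0.03 for all genes, and 3 of the 11 were highest in the library labelled Healthy, as were 26.8% of all genes. Isg15 was 235, 146, 180.04 and 143 CPM, and Bst2 325, 191, 343 and 275 CPM. Against AS, MTZ-treated differed by 2-fold in Ifitm1 alone (2.55% of all genes were lower and 2.78% higher), 11.5-fold lower (95% interval 8.94 to 14.8). MTZ-preventive differed in Irf7 alone, 3.23-fold higher (95% interval 2.14 to 5.11) than AS (2.74% of all genes were higher and 1.24% lower). Irf7 in these cells was 60.3, 30.9, 34.3 and 99.7 CPM, so MTZ-preventive was the highest of the 4. Its mean reached the 50 CPM set for a class only with MTZ-preventive counted. The counts for this class are therefore a description and not a test of the list. Ifi27l2a was 1415, 1051, 1983 and 771 CPM, with a level of MTZ-treated above that of every other library.

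Smooth muscle-like cells had the lowest summed level of the 3 classes, and most genes measured there were higher in AS than in the library labelled Healthy. The list without the IFITM family and Ifi27l2a summed to 1354 CPM in the library labelled Healthy, against 1351 in AS, with 1397 in MTZ-treated and 1065 in MTZ-preventive, and AS was 1.002-fold lower (95% interval 0.896 to 1.12) than the library labelled Healthy, an interval that includes no difference. Of 10 genes measured, Ifi27l2a and Ifitm1 were at least 2-fold higher in AS (3.75% of 2693 genes) and none was lower (9.21%). In all, 1 of the 10 was lower in AS by any amount, against 52.1% of all genes, and the median log2 ratio was 0.38 for the 10 and -0.03 for all genes. Ifi35 alone of the 10 was highest in the library labelled Healthy, as were 26.8% of all genes. Ifi27l2a was 158, 427, 224 and 194 CPM, highest in AS, and MTZ-preventive was 2.20-fold lower (95% interval 1.78 to 2.70) than AS. Ifitm1 was 8.82, 181, 10.8 and 30.1 CPM, so the filter on the mean let it in through AS alone. The counts for this class are therefore a description and not a test of the list. In MTZ-treated, Ifitm1 was the 1 gene past 2-fold, being lower (3.01% of all genes lower, 4.42% higher), and in MTZ-preventive both Ifi27l2a and Ifitm1 were lower (1.71% lower, 6.46% higher). Inside the AS cells of this class (118 cells), adipocyte markers summed to 369.6 CPM against 144, 106 and 244 CPM in the library labelled Healthy, MTZ-treated and MTZ-preventive, and neutrophil markers to 308 CPM against 3.74, 4.04 and 18.1 CPM. Their part in the Ifi27l2a and Ifitm1 levels was not tested.

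**Figure D5:**
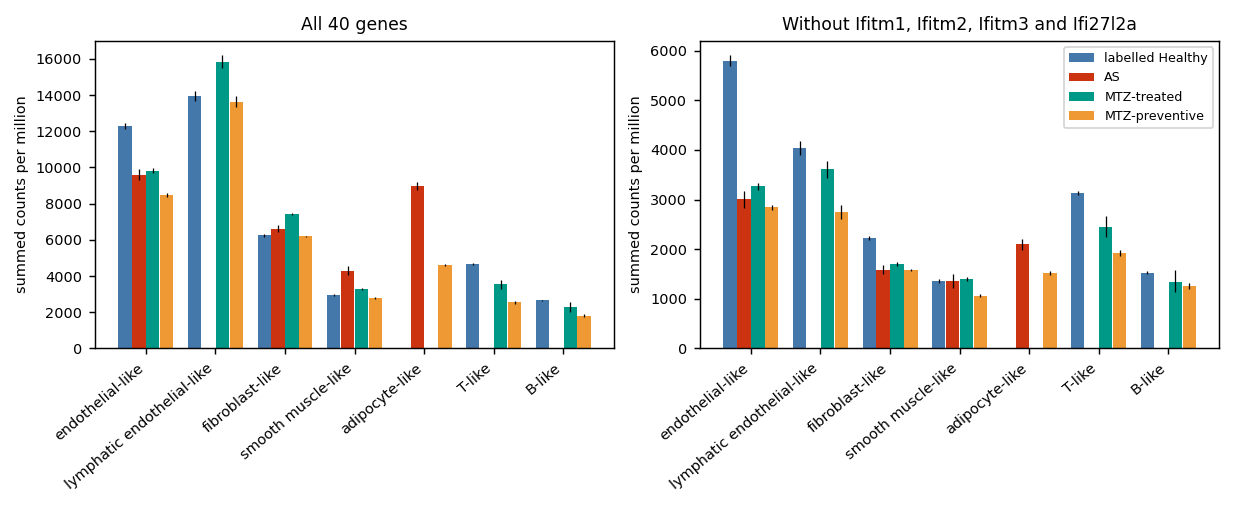
Summed CPM of the 40 ISGs (left) and of the 36 without Ifitm1, Ifitm2, Ifitm3 and Ifi27l2a (right), by class, for libraries with at least 50 cells of the class (bars, 1 library each; lines, exact 95% Poisson intervals). On the right, the endothelial-like bar of the library labelled Healthy, 5795 CPM, stands above the other 3 at 2841 to 3265 CPM, while the smooth muscle-like bars lie between 1065 and 1397 CPM.

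The remaining classes allowed fewer comparisons. In adipocyte-like cells, MTZ-preventive was lower than AS by 2-fold or more in 4 of 11 genes measured (Ifi27l2a, Ifitm1, Ifitm3, Psmb9; 3.25% of 2279 genes) and higher in none (2.9%), and the whole list was 1.95-fold lower (95% interval 1.89 to 2.004). In macrophage-like cells (54 in AS and 102 in MTZ-treated), Ifi27l2a was the 1 of 10 genes past 2-fold, 3.17-fold higher (95% interval 2.48 to 4.11) in MTZ-treated (6.27% of 2519 genes higher, 8.3% lower). B-like and T-like cells numbered 11 and 9 in AS, too few to compare. The list without the IFITM family and Ifi27l2a summed in T-like cells to 3133 CPM in the library labelled Healthy, 2456 in MTZ-treated and 1923 in MTZ-preventive, and in B-like cells to 1524, 1337 and 1260.2 CPM. Lymphatic endothelial-like cells had 4042, 3608 and 2743 CPM in the same order. In all of these classes the library labelled Healthy was the highest of the 3. The B-like sum of MTZ-treated rests on 58 cells with 109942 UMIs, so its place in that order is uncertain. Cells given no class had 14 genes at the level measured, of which Ifitm1, Ifitm2 and Ifitm3 were at least 2-fold higher in AS than in the library labelled Healthy (10% of 2826 genes) and none was lower (11.1%). There Isg15 was 2-fold higher in MTZ-treated than in AS (5.52%) and Ifitm1 lower (4.18%), while in MTZ-preventive none was higher (7.71%) and Ifi27l2a and Ifitm1 were lower (2.94%). In adipocyte-like cells and in those given no class, the filter on the mean let in Ifitm1 through AS alone. The counts in these cells are therefore a description and not a test of the list.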

How the data were processed

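Aortic cells were profiled with the 10x 5' v2 kit, 1 library per group. The authors ran Cell Ranger 5.0.0 (file headers) with STAR on mm10 (processing notes) and deposited UMI counts per gene and barcode. The cell numbers the study states are those of the deposited barcodes. The limits it states were applied here: more than 200 genes and 1000 UMIs, a log10 genes to log10 UMIs ratio above 0.7, under 10% mitochondrial and under 5% hemoglobin UMIs. Scrublet in scanpy 1.11.5 scored doublets, and the top 0.8% per 1000 cells were removed (39 to 2130 a library). Lines sharing a symbol were summed (38 symbols, no ISG). A cell joined 1 of 14 classes with UMIs of at least 3 of its 8 markers and at least 2 more than of any other class. Lymphatic cells were exempt from the endothelial count. Counts were summed per library and class and given as CPM. Named genes were all listed genes at a mean of 10 CPM or more over all cells, or 50 CPM in a class. A gene was called at 2-fold in CPM. With 1 library per group no test across genes was made. The ratio and its interval were run on simulated counts with counting error only. Such counts hold no variation between animals or pools, so the run cannot speak to that error. Alternatives were TMM factors from edgeR 4.0.16, other limits, gates, totals, weights and Leiden clusters made within each library. The members and gene lists were chosen with earlier results of these data known. Receptor contig files were not used.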

Additional observations from a re-analysis of the deposited data

Results flagged for a closer look

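Ifi27l2a moved by more than 2-fold in opposite directions in 2 classes under the same comparison. Its log2 ratio, AS over the library labelled Healthy, was -1.01 in endothelial-like cells and 1.43 in smooth muscle-like cells. The first of these lay barely past 2-fold, on 139 AS UMIs. The second rests on 118 AS cells in which adipocyte markers were also higher, as given above, and their part was not tested. The difference between the classes was not tested, since each rests on 1 library per group.

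The summed list without the IFITM family, which still held Ifi27l2a, differed in direction between classes. On the log2 scale, AS over the library labelled Healthy was -0.96 in endothelial-like, -0.46 in fibroblast-like and 0.23 in smooth muscle-like cells, and the intervals of counting error lay on opposite sides of 0 in the first and the last. This difference was not tested either. With Ifi27l2a left out as well, the smooth muscle-like ratio given above had an interval that includes no difference. The endothelial-like and fibroblast-like sums stayed lower in AS.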

How the results depend on the processing

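The log2 ratio of the summed list over all cells was 0.61 for AS to the library labelled Healthy, -0.12 for MTZ-treated to AS and -0.64 for MTZ-preventive to AS, and in endothelial-like cells -0.36, 0.0350 and -0.18. With looser limits on cells it was over all cells 0.52 for AS to the library labelled Healthy, -0.0794 for MTZ-treated to AS, -0.56 for MTZ-preventive to AS. With all deposited barcodes it was over all cells 0.51 for AS to the library labelled Healthy, -0.0642 for MTZ-treated to AS, -0.55 for MTZ-preventive to AS. Without B-, T-, NK- and neutrophil-like cells it was over all cells 0.32 for AS to the library labelled Healthy, -0.0532 for MTZ-treated to AS, -0.51 for MTZ-preventive to AS. With TMM factors it was over all cells 0.72 for AS to the library labelled Healthy, -0.15 for MTZ-treated to AS, -0.71 for MTZ-preventive to AS and in endothelial-like cells 0.11 for MTZ-treated to AS. With totals free of mitochondrial, ribosomal protein and hemoglobin genes it was over all cells 0.47 for AS to the library labelled Healthy, -0.0900 for MTZ-treated to AS, -0.55 for MTZ-preventive to AS and in endothelial-like cells 0.0870 for MTZ-treated to AS. Over only the classes that both libraries held (56.7% to 57.1% of the UMIs labelled Healthy), reweighted to that library, it was 0.28 for AS to the library labelled Healthy, 0.0181 for MTZ-treated to AS, which turned its direction, -0.44 for MTZ-preventive to AS. Without the IFITM genes it was over all cells 0.0787 for AS to the library labelled Healthy, -0.16 for MTZ-treated to AS and in endothelial-like cells -0.96 for AS to the library labelled Healthy, 0.16 for MTZ-treated to AS, -0.10 for MTZ-preventive to AS. With Leiden clusters it was in endothelial-like cells -0.44 for AS to the library labelled Healthy, 0.13 for MTZ-treated to AS, -0.24 for MTZ-preventive to AS. With the mean over cells it was in endothelial-like cells 0.12 for MTZ-treated to AS. Of the counts of genes past 2-fold over all cells, that higher in AS than in the library labelled Healthy went from 3 to 1 (Ifitm1) without B-, T-, NK- and neutrophil-like cells, and that lower in MTZ-preventive than in AS from 3 to 5 with all deposited barcodes. The other counts stayed within 1.5 times. Alternatives for the class counts were chosen after seeing the data. The share of all genes past 2-fold under each alternative is not given here, so the counts that follow cannot be set against it. The 12 endothelial-like genes lower in AS became 8 to 13. With looser limits on cells, 0 endothelial-like genes were higher and 1 lower in MTZ-preventive than in AS, in place of 1 and 0, and 1 was higher in MTZ-treated. With Leiden clusters 4 endothelial-like genes were higher and 0 lower in MTZ-treated than in AS, in place of 0 and 2, and 2 were higher in MTZ-preventive, in place of 1. In smooth muscle-like cells 1 gene was then higher in AS in place of 2. Of 90 class counts under these alternatives 74 stayed within 1.5 times, and of 84 values of single genes 59 stayed within their counting interval and none changed direction. Apart from the settings that by their construction leave out genes or cells, the cause was not tested. No paired analysis was possible because the labels carry no replicate numbers and each group is 1 library. No replicate could be left out for the same reason. Depth was the limit in AS, which had the fewest cells and UMIs, so low genes there, such as Ifit1 and Ifit3 in endothelial-like cells, rest on few UMIs.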

Other observations

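Tlr9, an endosomal sensor of DNA, was 22.0 CPM in B-like cells of the library labelled Healthy and 11.8 CPM in those of MTZ-preventive, and 1.04, 0, 0 and 0 CPM in endothelial-like cells. Macrophage-like cells of the library labelled Healthy, too few to compare at 41 cells, had 3543 CPM of Ifi27l2a and 460.3 CPM of Isg15. The 54 of AS had 513 and 119.5 CPM, and no comparison is drawn. The 21 adipocyte-like cells of MTZ-treated, also below the number set for comparing classes, had 21524 CPM of Ifi27l2a.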
